A study of Mus musculus with 22 samples.

Results

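Transcript levels of 31 astrocyte genes were examined in spinal cord of mice with knee joint pain that were treated with an inhibitor of the co-chaperone FKBP51. The genes were chosen as known markers of astrocytes, with earlier results of these data known. They were found by their symbol in the deposited table of 17306 genes, where each of the 31 has 1 row, and all 31 passed the filter on low values that left 16765 genes for testing. The libraries come from lumbar (L4-L6) spinal cord, where the study describes the tissue sequenced as the dorsal horn quadrant of the injured side. They are from 22 male wildtype C57BL6J mice, 12-14 weeks old at collection. All of them received 1 mg monoiodoacetate (MIA), which damages cartilage, in a knee joint, so that no group is free of injury. SAFit2, a selective FKBP51 inhibitor, was given at 100 mg/kg in a vesicular phospholipid gel (VPG), and Vehicle mice received the gel alone. Early SAFit2 (n = 5) and Early Vehicle (n = 6) mice received gel on days -3 and 4 from MIA, and Late SAFit2 (n = 5) and Late Vehicle (n = 6) mice on days 20 and 27, before collection on day 30. Early and Late carry separate batch labels. The Early SAFit2 titles read SAFit1 where the treatment label reads SAFit2.

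Astrocytes take up glutamate and potassium around synapses, couple to each other through gap junctions and cover blood vessels with endfeet. After injury they can become reactive, with more of the intermediate filament proteins GFAP and vimentin, while genes for their resting duties (homeostatic genes) can be lost. In the dorsal horn of the spinal cord, reactive astrocytes are known for a part in persistent pain. FKBP51 restrains the glucocorticoid receptor, which astrocytes express.

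Reads on genes ranged from 11352989 to 24433349 per library, and correlations of log2 CPM between libraries from 0.925 to 0.987. Bc1 and the mitochondrial genes together held a median of 19.5% of reads (highest 31.4%) in Late SAFit2 mice and 9.97% (highest 21.4%) in Late Vehicle mice. Library sizes without these genes raised the median late effect of all genes by 0.17 on the log2 scale. Meningeal and Schwann cell markers (Dcn, Lum, Pmp22 and Prx) summed to 148 to 1976 CPM in Late SAFit2 mice and to 380 to 762 CPM in Late Vehicle mice. Each value below is a bulk level, in which fewer astrocytes and less RNA per astrocyte cannot be told apart. Nothing in the labels beyond the replicate numbers describes the animals singly, and the p-values rest on the spread between these libraries.

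All 31 genes were well covered. The fewest reads were 198, for Cbs (which makes cystathionine) in its lowest library. Per kb of transcript, S100b (a calcium-binding protein), Cst3 (the protease inhibitor cystatin C) and Glul (glutamine synthetase) were highest in Early Vehicle mice, at 9.05 ± 0.47, 9.02 ± 0.12 and 8.97 ± 0.11 log2 CPM per kb (SD, n = 6). These 3 overlapped each other. Gfap followed at 8.70 ± 0.23, as the fifth, and Vim, at 5.11 ± 0.22, was the 22nd. Sox9, the transcription factor of the glial lineage, was at 3.33 ± 0.56 and Cbs lowest at 2.26 ± 0.22. Most neighbours in this order overlapped between mice, and only Atp1b2 (a subunit of the sodium and potassium pump) and Sox9 stood clear of the gene next below. No member was at 0 reads in any mouse. Vim is also made by ependymal, meningeal and endothelial cells, S100b by oligodendrocytes and Schwann cells, and Clu and Cst3 by neurons and microglia, so the sum over members does not come from astrocytes alone.

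**Figure D1:**
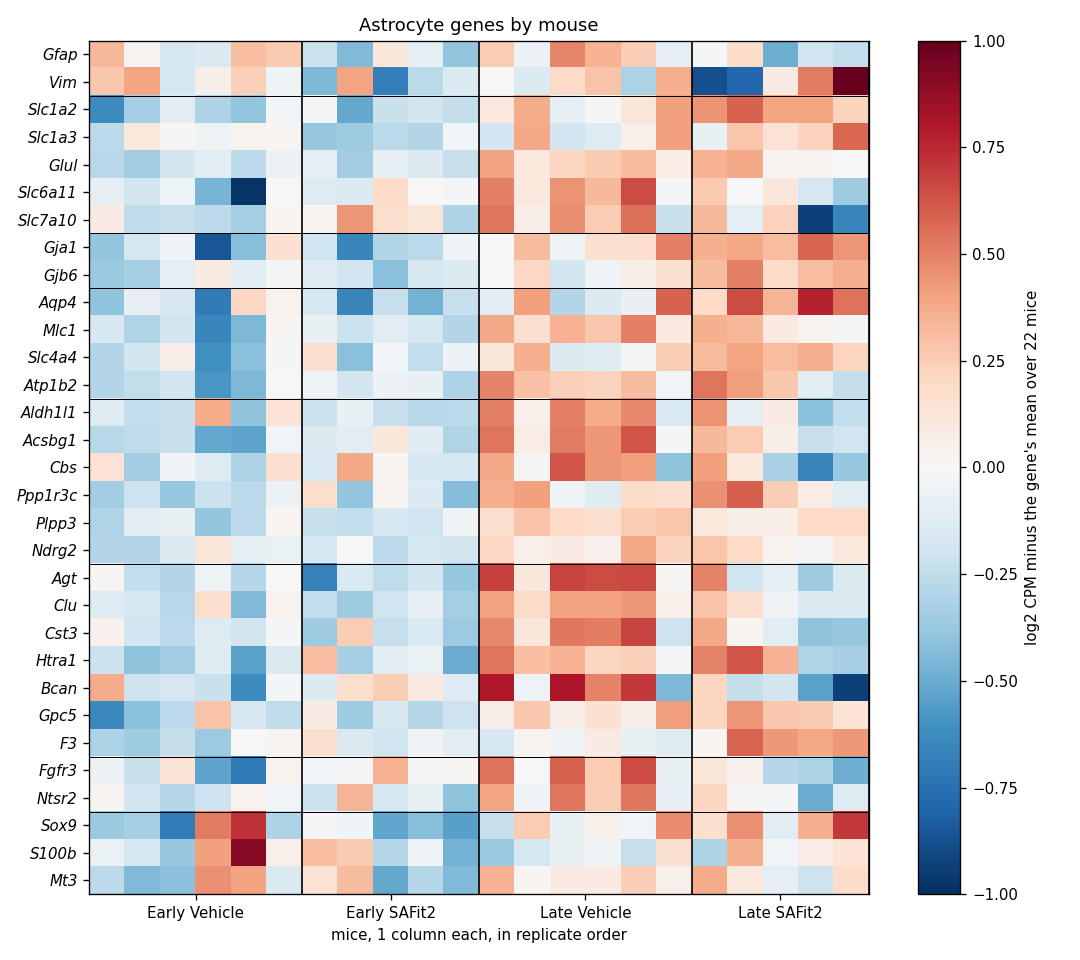
Level of each of the 31 astrocyte genes (rows, by role) in each of the 22 mice (columns, by group), as log2 CPM minus the gene's mean over all mice. Most homeostatic genes are blue in most Early mice and red in most Late Vehicle mice, while Gfap and Vim have both colours in every group.

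The table of RefSeq promoters held 27 of the 31 genes, with 31 start sites, and not Aqp4, Atp1b2, Clu and Sox9. The 250 bases before the start site were searched on both strands for the letters of 5 motifs, and in the sequences shown matches to 3 of them stand in capitals. TTCNNNGAA, the pattern bound by STAT factors, was found in 4 genes (Acsbg1, Agt, Ntsr2 and Slc1a3) and in 7.02% of 32851 promoters of all genes. ACANNNTGT, the core of the palindrome bound by the glucocorticoid receptor, was found in Glul and Slc1a2 and in 5.84% of all promoters. TATAAA was found in 5 genes (Agt, Gpc5, Ndrg2, Slc1a3 and Vim) and in 12.4% of all promoters. ACAAT, a short SOX pattern, was found in Mt3 and Slc1a3 and in 27.7% of all promoters. The NFI palindrome (TTGGC, any 5 bases, GCCAA) was found in no member and in 0.0365% of all promoters. Shown 5′ to 3′ on the gene's strand (GRCm38.p6) are the reactive markers Gfap (chr11:102897201-102897450, minus strand) and Vim (chr2:13574061-13574310, plus strand), and from the homeostatic genes Slc1a2 (chr2:102706188-102706437, plus strand), Glul (chr1:153899679-153899928, plus strand) and Agt (chr8:124569707-124569956, minus strand). Agt was among the genes called in the late comparison, and Slc1a2 and Glul among those called in both comparisons of Late with Early mice. Other genes called there (F3, Gjb6, Bcan and Fgfr3, and Gja1, Mlc1, Ppp1r3c, Plpp3 and Gpc5) are not shown. Of the 27 genes searched, only Slc1a2 and Glul carry the glucocorticoid receptor pattern in these 250 bases, and only Agt of the late calls the STAT pattern. The sequences shown thus do not tell how often called genes carry a pattern.
Gfap: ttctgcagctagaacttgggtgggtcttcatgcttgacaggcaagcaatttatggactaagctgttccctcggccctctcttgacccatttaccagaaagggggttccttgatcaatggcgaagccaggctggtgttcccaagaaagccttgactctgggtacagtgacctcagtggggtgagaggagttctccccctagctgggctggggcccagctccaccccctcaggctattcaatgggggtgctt
Vim: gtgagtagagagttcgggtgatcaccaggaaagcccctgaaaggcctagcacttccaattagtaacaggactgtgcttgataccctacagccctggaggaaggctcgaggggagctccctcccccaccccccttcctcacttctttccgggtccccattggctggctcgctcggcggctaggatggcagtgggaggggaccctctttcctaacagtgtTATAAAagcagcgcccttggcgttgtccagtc
Slc1a2: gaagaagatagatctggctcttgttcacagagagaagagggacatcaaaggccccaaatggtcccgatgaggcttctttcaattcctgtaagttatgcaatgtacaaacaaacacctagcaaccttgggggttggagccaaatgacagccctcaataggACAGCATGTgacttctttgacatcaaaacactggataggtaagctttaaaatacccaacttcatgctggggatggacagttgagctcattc
Glul: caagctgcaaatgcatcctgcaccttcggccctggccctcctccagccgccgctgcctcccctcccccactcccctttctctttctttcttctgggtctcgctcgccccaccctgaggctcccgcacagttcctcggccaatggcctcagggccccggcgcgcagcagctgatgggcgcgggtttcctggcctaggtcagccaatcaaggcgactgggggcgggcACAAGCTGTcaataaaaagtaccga
Agt: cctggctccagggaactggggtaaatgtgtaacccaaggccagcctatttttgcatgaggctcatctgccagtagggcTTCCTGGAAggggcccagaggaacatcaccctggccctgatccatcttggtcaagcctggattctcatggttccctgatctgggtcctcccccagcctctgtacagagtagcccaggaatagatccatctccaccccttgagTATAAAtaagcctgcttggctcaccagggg
A match to these letters is a description only. The Slc1a2 window lies inside the gene, whose span begins at chr2:102658239, and so precedes an internal start site. None of the 3 capitalised patterns is present in the Gfap window.

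The first question was whether SAFit2 changed the reactive markers. Gfap encodes the main intermediate filament protein of astrocytes. In Late Vehicle mice it ranged from 9.91 to 10.49 log2 CPM, with a median of 10.26. In Late SAFit2 mice it was 9.99, 10.19, 9.51, 9.81 and 9.76. The 5 treated mice lay below the Vehicle mean of 10.20, but 2 of them within the Vehicle range. The difference was -0.35 ± 0.14 (log2, SE), which was not called (limma p = 0.020 and adjusted p = 0.085, two-sided exact permutation p = 0.048). It passed the test without Late Vehicle mouse 2 (-0.40) or mouse 6 (-0.41) and with library quality weights (-0.50). Early SAFit2 mice were at 9.79, 9.57, 10.11, 9.92 and 9.61, and Early Vehicle mice between 9.83 and 10.33 with a median of 10.15. Of the 5 treated mice 3 lay below every Vehicle mouse, and the early difference was -0.30 ± 0.14 (limma p = 0.040 and adjusted p = 1.00 to 3 digits, exact permutation p = 0.058). The mean of both differences was -0.33 ± 0.10, a 1.25-fold lower level, where the exact permutation test of mice within timing gave p = 0.0045 and limma p = 0.0030 (adjusted p = 0.325). The early and the late effect on Gfap differed by 0.04 ± 0.20 (early minus late, limma p = 0.82, exact permutation p = 0.86), with a 95% interval of -0.36 to 0.45. After correction for GC content and transcript length, the late value of Gfap was 0.01 and the early value -0.33.

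Vim, the other intermediate filament gene, showed no called difference. In Late SAFit2 mice it was 5.65, 5.75, 6.62, 7.05 and 7.62 log2 CPM, against 6.22 to 6.89 in Late Vehicle mice. The treated mice fell on both sides of the Vehicle range, and the difference was -0.06 ± 0.25 (limma adjusted p = 0.889). The summed meningeal and Schwann cell markers of the same 5 treated mice, in the same order, were 259, 148, 776, 1080 and 1976 CPM, so that the mice with low Vim had low values of these markers. Their part in the Vim level was not tested. In Early mice the difference in Vim was -0.35 ± 0.25 (exact permutation p = 0.10), with 6.08, 6.93, 5.85, 6.26 and 6.39 in SAFit2 mice and 6.35 to 6.93 in Vehicle mice.

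**Figure D2:**
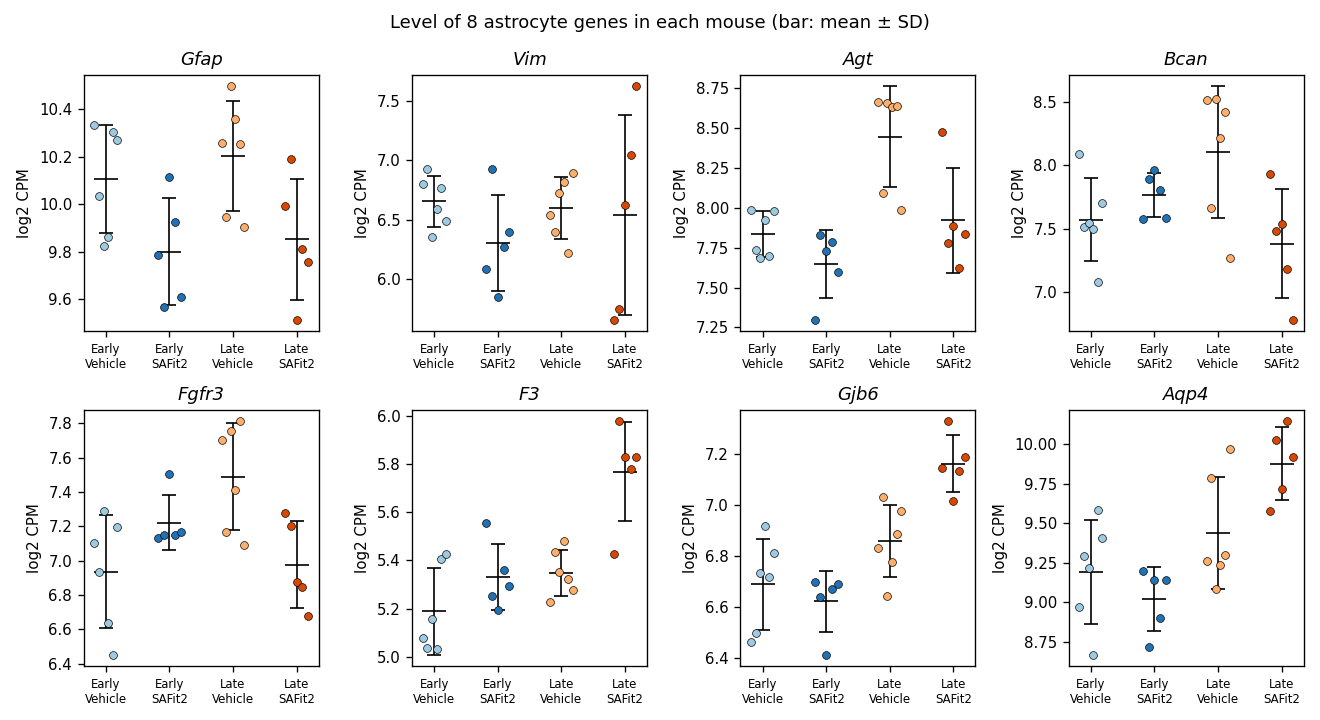
Level (log2 CPM) of 8 astrocyte genes in each mouse of the 4 groups, with the mean and SD as bars. Gfap sits lower in SAFit2 than in Vehicle mice at both timings with overlap, Late SAFit2 mice lie high for F3 and Gjb6, and 4 of 6 Late Vehicle mice lie high for Agt and Bcan.

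Of the 31 genes, 5 were called in Late SAFit2 against Late Vehicle mice (adjusted p under 0.05 and at least 1.2-fold, limma), where 12.1% of all genes tested were called. F3 and Gjb6 rose, beside 5.33% of all genes, and Agt, Bcan and Fgfr3 fell, beside 6.72%. At nominal p under 0.05 there were 15 members, 3 higher and 12 lower, with 34.5% of all genes at that level (15.6% higher and 19.0% lower). No member was without overlap between the groups, against 1.71% of all genes. The median of the 31 members was -0.08, beside -0.05 for all genes. With library sizes taken without Bc1 and the mitochondrial genes, the members' median was 0.08.

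F3 encodes tissue factor, the start of the coagulation cascade, which astrocytes carry on their surface. Late SAFit2 mice were at 5.42, 5.98, 5.83, 5.78 and 5.83 log2 CPM, and Late Vehicle mice between 5.23 and 5.48 with a median of 5.34. Of the 5 treated mice 4 exceeded each Vehicle mouse. F3 was 1.34-fold higher (log2 0.42 ± 0.11, limma adjusted p = 0.033). Gjb6 encodes connexin 30, a gap junction protein of astrocytes. It was 7.15, 7.33, 7.02, 7.14 and 7.19 in Late SAFit2 mice and between 6.64 and 7.03, with a median of 6.86, in Late Vehicle mice. Again 4 treated mice lay above all Vehicle mice, and the level was 1.24-fold higher (log2 0.31 ± 0.10, limma adjusted p = 0.045).

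Agt encodes angiotensinogen, the precursor of angiotensin, made in the nervous system mostly by astrocytes. Late SAFit2 mice were at 8.47, 7.78, 7.89, 7.62 and 7.84 log2 CPM, and Late Vehicle mice between 7.99 and 8.66 with a median of 8.63. Of the treated mice 4 lay below every Vehicle mouse, and Agt was 1.44-fold lower (log2 -0.52 ± 0.15, limma adjusted p = 0.034). Bcan encodes brevican, a proteoglycan of the extracellular matrix. It was at 7.93, 7.48, 7.54, 7.18 and 6.78 in Late SAFit2 mice and between 7.27 and 8.52 (median 8.32) in Late Vehicle mice. The groups overlapped, with 2 treated mice below all Vehicle mice, and Bcan was 1.65-fold lower (log2 -0.72 ± 0.21, limma adjusted p = 0.036). Fgfr3 encodes a receptor for fibroblast growth factors that marks astrocytes from development on. It was at 7.28, 7.20, 6.88, 6.84 and 6.68 in Late SAFit2 mice and between 7.09 and 7.81 (median 7.56) in Late Vehicle mice. Of the treated mice 3 lay below every Vehicle mouse, and Fgfr3 was 1.43-fold lower (log2 -0.51 ± 0.15, limma adjusted p = 0.040).

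The 26 other members did not pass in the late comparison, with differences from -0.50 for Slc7a10 (an amino acid transporter for D-serine) to 0.44 for Aqp4 (the water channel of endfeet, limma adjusted p = 0.068). Among the transporters, Slc6a11 (a GABA transporter) was at -0.37 and the glutamate transporters Slc1a2 and Slc1a3 at 0.25 and 0.18. Glul was at -0.07. The connexin gene Gja1 was at 0.23. Of the membrane proteins of endfeet, Mlc1 was at -0.13, the bicarbonate transporter Slc4a4 at 0.25 and Atp1b2 at -0.08. Metabolic genes lay between -0.41 for Cbs and 0.09 for Ppp1r3c (a regulator of glycogen), with 5 of 6 negative. Cst3 was at -0.45 (limma adjusted p = 0.051) and Clu (clusterin) at -0.29, while Htra1 was at -0.10 and Gpc5 at 0.09. Ntsr2, a neurotensin receptor, was at -0.35. Sox9, S100b and Mt3 (metallothionein 3) were at 0.24, 0.17 and -0.07.

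**Figure D3:**
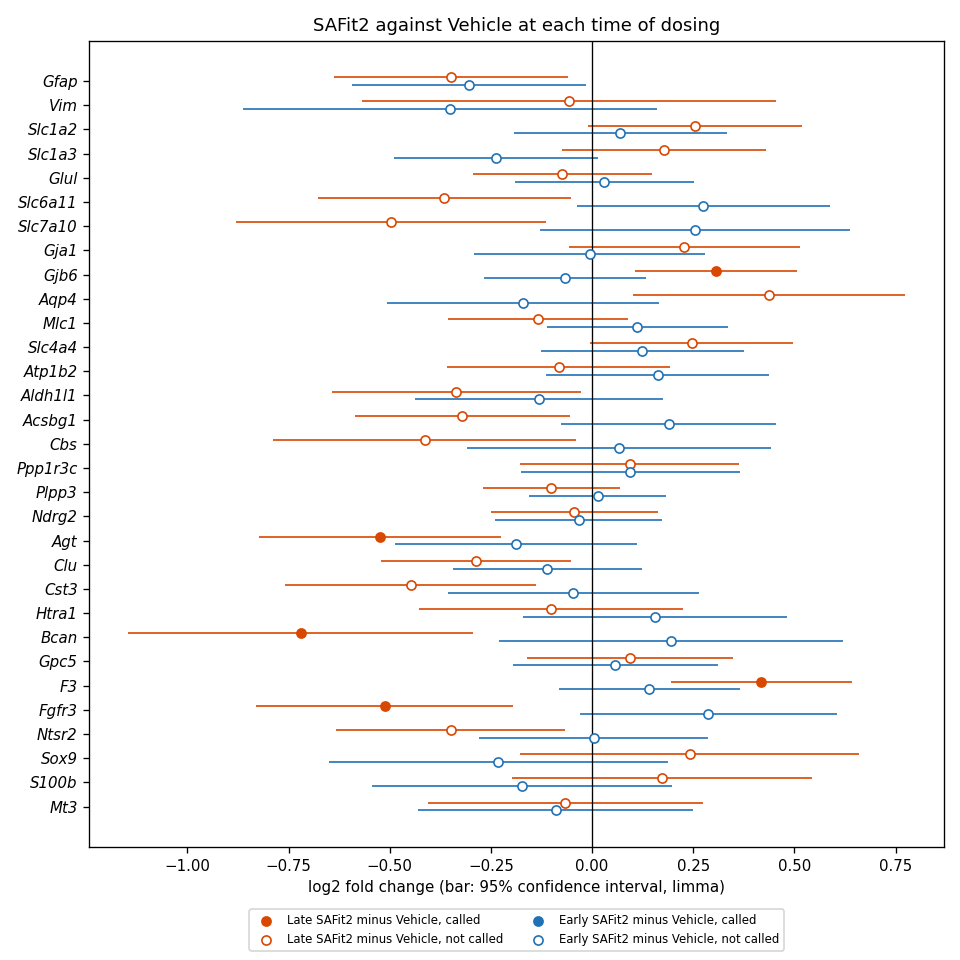
Difference of SAFit2 from Vehicle mice (log2 fold change with 95% confidence interval, limma) for each astrocyte gene in Late mice (orange) and Early mice (blue). Filled points are called, which holds for 5 genes in Late mice and for none in Early mice.

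The direction of the late differences went with the base composition of the transcripts. All 16 members with a GC content at or above the members' median of 51.9% had a negative late difference, and 11 of the 15 below it a positive one. Over the 31 members, GC content and late difference had a Pearson r of -0.79 and a Spearman rho of -0.81. Genes are not independent replicates, and the r over 16213 genes was -0.61. Agt, Bcan and Fgfr3 have 56.3%, 60.7% and 56.4% GC, Gfap has 55.5%, and F3 and Gjb6 have 46.3% and 49.6%. In each library, the deviation of log2 CPM from the gene's mean was regressed on GC content. The slope ran from -0.48 to -0.05 per 10 percentage points of GC in Late SAFit2 mice, and from -0.32 to 0.49 in Late Vehicle mice. The 2 Late Vehicle mice with negative slopes, mice 2 and 6 at -0.16 and -0.32, are the 2 with the lowest Agt, Bcan, Fgfr3 and Gfap of that group and its 2 highest for Aqp4. The slopes differed between the late groups at an exact permutation p of 0.028 (two-sided), or 0.056 after Benjamini-Hochberg adjustment over 2 comparisons. In Early mice that p was 0.62.

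After each library was corrected for its trend on GC content and length, 0 members were called in the late comparison (limma, 3 at nominal p), as were 0% of all genes, of which 16.1% had a nominal p under 0.05. F3 was then at 0.31 and Gjb6 at 0.35, with limma adjusted p of 0.14 and 0.11. Agt was at -0.15, Bcan at -0.09 and Fgfr3 at -0.08. The median of the members was 0.04. A treatment effect that follows GC content would be removed with it.

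**Figure D4:**
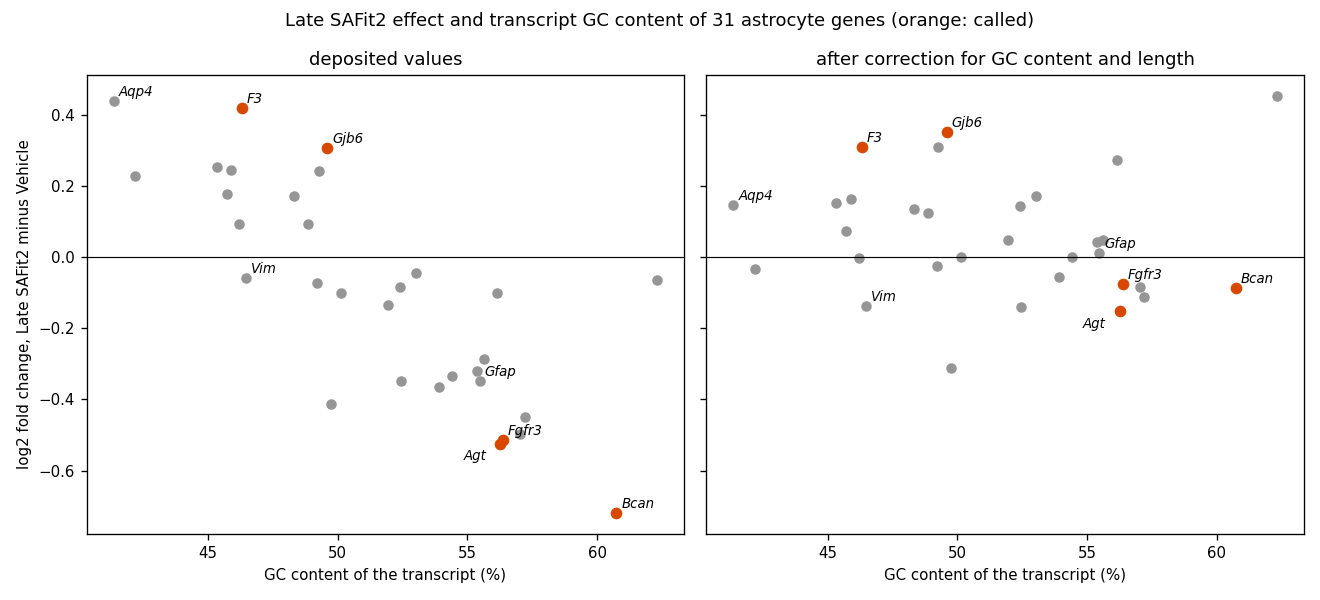
Late difference (SAFit2 minus Vehicle, log2 fold change) of the 31 astrocyte genes against the GC content of the transcript (%), from the deposited values (left) and after correction for GC content and length (right). Points called on the deposited values are orange, and Agt, Bcan and Fgfr3 move from below -0.5 on the left to between -0.15 and -0.08 on the right.

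The late calls also rested on single mice. The count of 5 became 0 without Late SAFit2 mouse 2, 4 or 5 and without Late Vehicle mouse 1, 3, 4 or 5, and 13, 11 and 15 without Late SAFit2 mouse 1, Late Vehicle mouse 2 and Late Vehicle mouse 6. The share of all genes called in each of these fits is not given, so the counts show only how stable the late calls are. The direction of the 5 called genes held in every alternative run.

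In Early mice 0 members were called (limma), as were 0% of all genes. With voom the count was also 0. At nominal p under 0.05 there was 1 member, Gfap, beside 2.48% of all genes. After correction for GC content and length there were 6, beside 4.51% of all genes, and 0 were called. No member was without overlap, beside 0.352% of all genes. The differences of the 31 members ran from -0.35 for Vim to 0.29 for Fgfr3, with a median of 0.01 that equals that of all genes to 2 decimals. Behind Gfap, the lowest limma p-values were those of Slc1a3 at -0.24, Fgfr3 at 0.29, Slc6a11 at 0.27 and Acsbg1, an acyl-CoA synthetase, at 0.19, with exact permutation p of 0.024, 0.13, 0.16 and 0.11 and a limma adjusted p of 1.00 to 3 digits for each. Fgfr3 in Early SAFit2 mice was 7.13, 7.15, 7.51, 7.15 and 7.17, with 4 mice close together and mouse 3 above them, and in Early Vehicle mice between 6.45 and 7.29. Slc1a3 encodes the glutamate transporter GLAST. It was 6.73, 6.75, 6.84, 6.81 and 7.08 in Early SAFit2 mice and between 6.83 and 7.21 in Early Vehicle mice, with overlap.

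The early and the late effect of SAFit2 were compared directly. No member was called for the difference (limma, lowest adjusted p 0.12), as were 0% of all genes. At nominal p there were 8 members, 5 positive and 3 negative, beside 24.9% of all genes (14.0% and 10.9%). Without Late Vehicle mouse 6, 7 members were called, in a fit for which the share of all genes called is not given here. Fgfr3 differed by 0.80 ± 0.22 (early minus late, exact permutation p = 0.0038) and Bcan by 0.92 ± 0.29 (exact permutation p = 0.017). Slc7a10, Slc6a11 and Acsbg1 were at 0.75, 0.64 and 0.51, and the 3 negative members Aqp4, Slc1a3 and Gjb6 at -0.61, -0.42 and -0.37. After correction for GC content and length Fgfr3 was at 0.29, Bcan at 0.19 and Aqp4 at -0.30, while Gjb6 stayed at -0.37, and the median of the members moved from 0.10 to -0.04. Averaged over both timings, 7 members had a nominal p under 0.05, beside 13.2% of all genes (6.03% higher and 7.18% lower). This count was 4 without Early SAFit2 mouse 5, Late SAFit2 mouse 4 or Late Vehicle mouse 5. F3 (0.28) and Slc4a4 (0.19) were higher, and Agt, Gfap, Clu, Cst3 and Aldh1l1 (a folate enzyme, -0.23) lower. Their limma adjusted p was 0.318 or above.

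Late and Early mice were also compared at equal treatment. The labels give timing and batch together, so the days of dosing and the batch cannot be told apart here. In Vehicle mice, 15 of the 31 genes were called (limma), all higher in Late mice, where 9.11% of all genes were called and 3.29% called higher. The median of the members was 0.41, beside 0.01 for all genes, and 29 members had a positive difference, as had 50.7% of all genes. In SAFit2 mice, which are other animals, 13 were called, all higher in Late mice, beside 20.5% of all genes called and 9.20% called higher. The median was 0.28, beside -0.07 for all genes, and 26 members had a positive difference, as had 44.3% of all genes. This second comparison was added after the first had been seen.

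Of the 31 members 7 were called in both comparisons (Slc1a2, Glul, Gja1, Mlc1, Ppp1r3c, Plpp3 and Gpc5), which is 46.7% of the 15 and 53.8% of the 13. Of all genes tested, 0.895% were called higher in both. A positive difference in both was seen for 24 members. The share of all genes positive in both is not given, so this count is a description only. Neither Gfap nor Vim was called in either. Gfap was at 0.10 ± 0.13 in Vehicle and 0.05 ± 0.15 in SAFit2 mice, with 95% intervals of -0.18 to 0.37 and -0.25 to 0.36. Its sign turned with quantile normalization (-0.16 and -0.19), and after correction for GC content and length it was at 0.08 and 0.42, the latter past the test (limma adjusted p = 0.026). Vim was at -0.06 ± 0.24 and 0.23 ± 0.26.

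**Figure D5:**
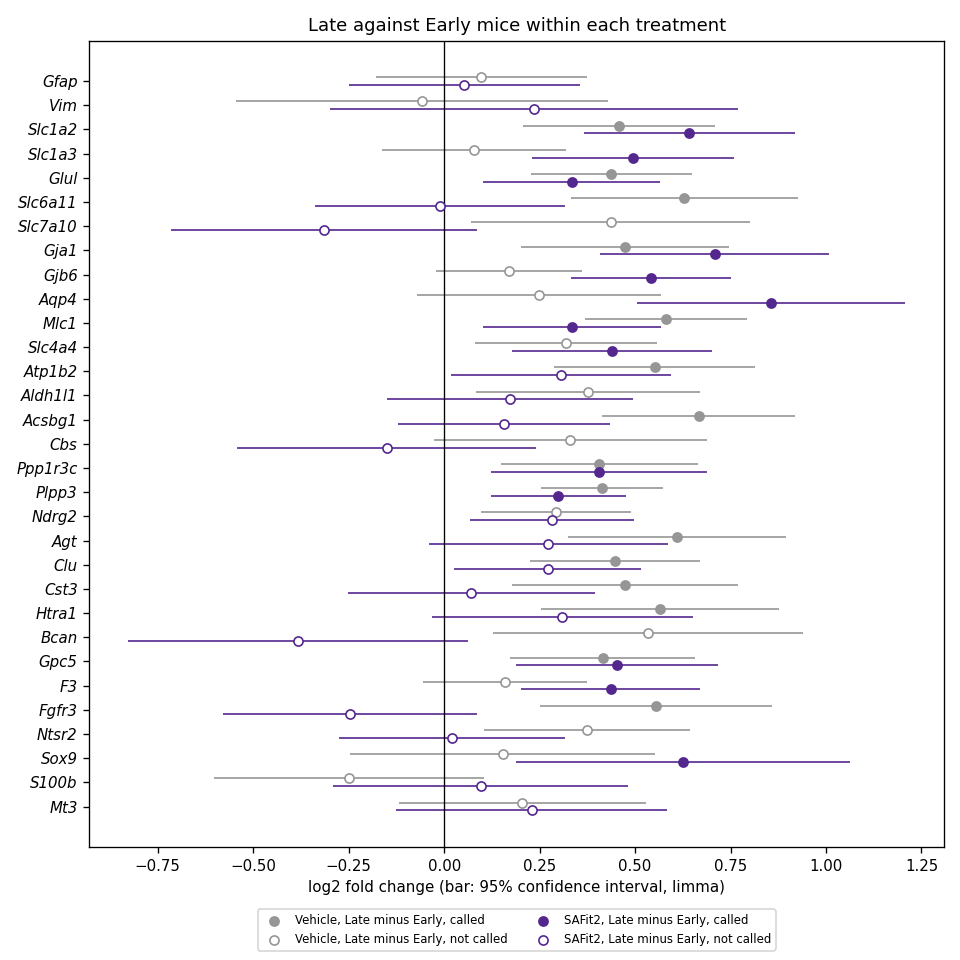
Difference of Late from Early mice (log2 fold change with 95% confidence interval, limma) for each astrocyte gene in Vehicle mice (grey) and SAFit2 mice (purple), with called genes filled. All 15 and 13 filled points are right of 0, and both intervals of Gfap and of Vim span 0.

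Transporters of glutamate and GABA and their enzyme were among the genes that rose. Glul converts glutamate to glutamine. It was between 10.31 and 10.60 log2 CPM (median 10.43) in Early Vehicle mice, and between 10.73 and 11.06 (median 10.90) in Late Vehicle mice. It was 10.56, 10.32, 10.57, 10.52 and 10.43 in Early SAFit2 mice and between 10.66 and 11.04 (median 10.69) in Late SAFit2 mice. The Early and Late mice did not overlap at either treatment, with differences of 0.44 ± 0.10 and 0.33 ± 0.11 (limma adjusted p = 0.0073 and 0.036). Slc1a2, the main glutamate transporter of astrocytes, was between 10.34 and 10.95 in Early Vehicle mice and between 10.89 and 11.39 in Late Vehicle mice. It was 10.97, 10.47, 10.76, 10.80 and 10.73 in Early SAFit2 and 11.42, 11.57, 11.37, 11.37 and 11.20 in Late SAFit2 mice. The SAFit2 groups were apart and the Vehicle groups overlapped, with differences of 0.64 ± 0.13 and 0.46 ± 0.12 (limma adjusted p = 0.0022 and 0.018). Slc6a11 ranged from 7.76 to 8.74 in Early Vehicle and from 8.72 to 9.39 in Late Vehicle mice, a called difference (0.63 ± 0.15, limma adjusted p = 0.0065), and was at -0.01 ± 0.16 in SAFit2 mice. Slc1a3 ranged from 6.73 to 7.08 in Early SAFit2 and from 7.03 to 7.68 in Late SAFit2 mice, a called difference (0.49 ± 0.13, limma adjusted p = 0.0091), and was at 0.08 ± 0.12 in Vehicle mice. Both sets overlapped at the edge.

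Among gap junction and endfoot genes, Gja1 (connexin 43) was called at both treatments. It was 7.95, 7.49, 7.84, 7.88 and 8.10 log2 CPM in Early SAFit2 mice and 8.50, 8.53, 8.45, 8.72 and 8.59 in Late SAFit2 mice, apart (0.71 ± 0.15, limma adjusted p = 0.0019). It ranged from 7.29 to 8.30 in Early Vehicle and from 8.10 to 8.65 in Late Vehicle mice, with overlap (0.47 ± 0.13, limma adjusted p = 0.024). Gjb6 ranged from 6.41 to 6.70 in Early SAFit2 mice and from 7.02 to 7.33 in Late SAFit2 mice, apart as well (0.54 ± 0.10, limma adjusted p = 0.00090). Mlc1, a membrane protein of endfeet, had the lowest p among Vehicle mice. It was between 7.11 and 7.79 in Early Vehicle and between 7.86 and 8.27 in Late Vehicle mice, without overlap (0.58 ± 0.10, limma adjusted p = 0.00064). In SAFit2 mice Mlc1 was at 0.34 ± 0.11 (limma adjusted p = 0.037). Aqp4 was 9.20, 8.72, 9.14, 8.90 and 9.14 in Early SAFit2 mice and 9.58, 10.03, 9.71, 10.15 and 9.92 in Late SAFit2 mice. Each Late mouse exceeded each Early one, a 1.81-fold difference (log2 0.86 ± 0.17, limma adjusted p = 0.0015). In Vehicle mice the Aqp4 groups overlapped, at 0.25 ± 0.16 (limma adjusted p = 0.35). Slc4a4 ranged from 8.05 to 8.63 in Early SAFit2 and from 8.69 to 8.87 in Late SAFit2 mice, without overlap (0.44 ± 0.13, limma adjusted p = 0.017). Atp1b2 ranged from 9.60 to 10.18 in Early Vehicle and from 10.15 to 10.67 in Late Vehicle mice, with slight overlap (0.55 ± 0.13, limma adjusted p = 0.0067).

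Of the metabolic genes, Acsbg1 rose in Vehicle mice (0.67 ± 0.12, limma adjusted p = 0.00096), from between 7.51 and 8.02 to between 8.02 and 8.67 without overlap. Plpp3, a lipid phosphatase, ranged from 7.04 to 7.45 in Early Vehicle and from 7.60 to 7.71 in Late Vehicle mice (0.41 ± 0.08, limma adjusted p = 0.0012). It was 7.21, 7.19, 7.26, 7.23 and 7.39 in Early SAFit2 mice and 7.54, 7.49, 7.50, 7.63 and 7.63 in Late SAFit2 mice (0.30 ± 0.09, limma adjusted p = 0.016). No Early mouse reached a Late one at either treatment. Ppp1r3c was called at both treatments with overlap, at 0.41 ± 0.13 in Vehicle and 0.40 ± 0.14 in SAFit2 mice (limma adjusted p = 0.041 and 0.038). Aldh1l1, Cbs and Ndrg2 (a regulator of cell growth and stress responses) were not called, at 0.38, 0.33 and 0.29 in Vehicle and 0.17, -0.15 and 0.28 in SAFit2 mice.

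Among secreted and surface proteins, 5 were called in Vehicle mice. Agt ranged from 7.69 to 7.99 in Early and from 7.99 to 8.66 in Late Vehicle mice (0.61 ± 0.14, limma adjusted p = 0.0061), and the protease gene Htra1 from 7.25 to 7.66 and from 7.77 to 8.32 (0.57 ± 0.15, limma adjusted p = 0.019). These 2 did not overlap between Early and Late mice. Clu, at 0.45 ± 0.11, Cst3, at 0.47 ± 0.14, and Gpc5 (glypican 5), at 0.42 ± 0.12, overlapped (limma adjusted p = 0.0094, 0.038 and 0.026). In SAFit2 mice Gpc5 ranged from 5.75 to 6.19 in Early and from 6.25 to 6.55 in Late mice, apart (0.45 ± 0.13, limma adjusted p = 0.016). F3 ranged from 5.20 to 5.55 and from 5.42 to 5.98, with overlap (0.44 ± 0.11, limma adjusted p = 0.0095). Fgfr3 was called in Vehicle mice (0.55 ± 0.15, limma adjusted p = 0.018) and was at -0.25 in SAFit2 mice, and Sox9 was called in SAFit2 mice (0.63 ± 0.21, limma adjusted p = 0.038) and was at 0.15 in Vehicle mice. Both overlapped. Of the members not called, Slc7a10 was at 0.44 and -0.31, Ntsr2 at 0.37 and 0.02 and Mt3 at 0.20 and 0.23, in Vehicle and SAFit2 mice. Bcan was at 0.53 and -0.38 and was not called in either. In SAFit2 mice, GC content and the Late minus Early difference had a Pearson r of -0.71 over the 31 members and -0.40 over 16213 genes. In Vehicle mice these were 0.37 and 0.19. After correction for GC content and length, 0 members were negative in SAFit2 mice, and 30 of the 31 were positive in Vehicle mice. S100b was at -0.25 ± 0.17 in Vehicle mice, where Early mice 4 and 5 had the 2 highest S100b (9.90 and 10.40) and Sox9 (5.97 and 6.18) of their group.

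Without overlap between Early and Late mice were 6 members in Vehicle (all higher in Late mice, beside 1.32% of all genes) and 9 in SAFit2 mice (beside 7.09%). After correction for GC content and length, 23 members were called in Vehicle and 24 in SAFit2 mice, all higher, beside 18.6% and 21.4% of all genes. All of the 15 and of the 13 called on the deposited values passed there (limma). Relative to the median of all genes, the members' median was 0.41 in Vehicle and 0.35 in SAFit2 mice, and 0.35 and 0.40 after correction. With quantile normalization, 3 and 5 members were called, all higher. Leaving out 1 mouse at a time gave 11 to 19 and 9 to 14 called members. The share of all genes called with quantile normalization or without 1 mouse is not given, so these counts show only how stable the calls are. Some markers of other cell types were called too, beside 9.11% of all genes in Vehicle mice (3.29% higher) and 20.5% in SAFit2 mice (9.20% higher). Of 7 microglia markers, 0 were called in Vehicle mice (2 at nominal p) and 2 in SAFit2 mice (Cx3cr1 0.50 and P2ry12 0.85, both higher). Their sum was 160 to 189 CPM in Early and 194 to 236 CPM in Late SAFit2 mice, and 167 to 208 CPM in Early and 206 to 251 CPM in Late Vehicle mice. Of 8 oligodendrocyte markers 1 and 2 were called (Cnp 0.35 in Vehicle, Mog 0.55 and Cldn11 0.57 in SAFit2 mice), and of 8 neuron markers 2 and 2 (Tubb3 0.68 and Slc32a1 0.59, Map2 0.50 and Slc17a6 0.51). Of 6 endothelial markers 1 was called in each (Pecam1 0.48, Ly6c1 0.45), and of 8 ependymal markers 0 and 3 (Ccdc153 3.57, Tmem212 2.66 and Dynlrb2 1.91). Of 4 oligodendrocyte precursor and of 4 meningeal and Schwann cell markers none was called. The 31 astrocyte genes summed to 10858 to 13071 CPM in Early mice and to 13327 to 16365 CPM in Late mice, with no overlap. Whether the other cell types had a part in this was not tested.

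Other genes of reactive astrocytes were taken from 3 lists. Of 11 pan-reactive genes none was called in Late or in Early SAFit2 against Vehicle mice (limma). At nominal p there were 2 and 1, beside 34.5% and 2.48% of all genes. In Early mice Cd44, a hyaluronan receptor, was at -0.75 ± 0.20 (limma adjusted p = 1.00 to 3 digits). Of 11 genes associated with neuroinflammation, Gbp2 (an interferon-induced GTPase) was called higher, at 1.01 ± 0.32, and H2-T23 (a class I antigen-presenting molecule) lower, at -0.53 ± 0.17, in Late SAFit2 mice. The calls make up 18.2% of the list, beside 12.1% of all genes. After correction for GC content and length, 0% of all genes were called in the late comparison. Fkbp5 itself, which encodes FKBP51 and is on that list, was at 0.29 ± 0.15 in Late and 0.18 ± 0.15 in Early mice, not called at either timing. Averaged over both timings Fkbp5 was at 0.23, the highest value of the list. It was the 1 gene of the list higher at nominal p under 0.05 (limma), beside 6.03% of all genes. No adjusted p of the list was below 0.325 there. The study also names Fkbp5 among the genes raised by SAFit2 at nominal p. Of the 10 measured genes associated with injury none was called in Late or Early mice, with 2 and 0 at nominal p, and Tgm1 and Slc10a6 of that list were not tested. Between Late and Early Vehicle mice no gene of the 3 lists was called, with 2, 0 and 2 at nominal p. Between Late and Early SAFit2 mice 3 of 11, 2 of 11 and 2 of 10 were called (27.3%, 18.2% and 20% of the lists, beside 20.5% of all genes), of which Lcn2 (1.60), Cd44 (0.73), Gbp2 (1.22) and Srgn (0.65) were higher and Aspg (-1.22), Clcf1 (-1.66) and Sphk1 (-1.38) lower. Clcf1 averaged -2.22 log2 CPM in Late SAFit2 mice, with the lowest at 0 reads, so the size of its difference depends on the floor.

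Ependymal cells, which line the central canal, also express Vim, Gfap and S100b. For the SAFit2 effect averaged over timings, 8 of 8 ependymal markers were lower at nominal p under 0.05, beside 7.18% of all genes, with limma adjusted p from 0.30 to 0.36. At nominal p there were 3 in Late mice, beside 34.5% of all genes (19.0% lower), and 5 in Early mice, beside 2.48%. All of these markers were lower. Their sum was 20.6 to 54.9 CPM in Late SAFit2 and 34.8 to 75.3 CPM in Late Vehicle mice, and 23.9 to 31.5 CPM in Early SAFit2 and 28.02 to 54.9 CPM in Early Vehicle mice, with overlap at both timings. Foxj1, the regulator of motile cilia, was called lower in Late SAFit2 mice (-0.77 ± 0.19), as was Rarres2 (-0.86 ± 0.28), and Ccdc153 was at -4.22 ± 0.98 in Early mice (limma adjusted p = 1.00 to 3 digits). Ccdc153 averaged -2.62 log2 CPM in Early SAFit2 mice, with the lowest at 0 reads, so the size of its difference depends on the floor. Gfap, which was not called at either timing, was at -0.35 in Late and -0.30 in Early mice, and a part of ependymal cells in these Gfap values was not tested. Gfap itself was at 9.51 log2 CPM or above in every mouse, with at least 7708 reads. Of other markers, 2 of 8 for neurons (Map2 0.52 and Slc32a1 -0.55) and 1 of 6 for endothelial cells (Cldn5, -0.53) were called in Late mice, and 0 of 8 for oligodendrocytes and 0 of 7 for microglia, with 3 and 2 at nominal p. None was called of 4 precursor markers (2 at nominal p, lowest p for Cspg4 -0.53, Vcan 0.37 and Gpr17 -0.28) nor of 4 meningeal and Schwann cell markers (0 at nominal p, lowest p for Prx -1.70, Lum 0.18 and Pmp22 0.11). Of all genes, 12.1% were called in the late comparison and 34.5% had a nominal p under 0.05. After correction for GC content and length, 0% of all genes were called there. In Early mice 0 markers of these lists were called, as were 0% of all genes.

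The members did not vary as 1 block between mice of the same group. Over the 465 pairs of members, the correlation of deviations from the group means (22 mice) had a median of 0.12 and ran from -0.86 to 0.91, with 267 pairs above 0. The closest pairs were Slc6a11 with Fgfr3 and Cbs with Cst3, both at 0.91. The members' correlation with the GC slope of the library ran from -0.80 for Aqp4 to 0.93 for Bcan. After correction for GC content and length the median over pairs was 0.22, with 340 pairs above 0. Before correction Gfap went most closely with Acsbg1 (0.58) and Vim with Slc1a3 (0.32). Sox9 and S100b went together at 0.87 before and 0.83 after correction. These values are descriptions, since the pairs share libraries.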

How the data were processed

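RNA-seq of 22 mice was analysed. The deposited values are log2 CPM per gene. Per the study's methods, the authors aligned reads to mm10, counted them per gene and scaled library sizes, and the labels' tool list names Trimmomatic, HISAT2 and edgeR with no version. The number of deposited sample columns left unused is 0. Reads worked back from the values were whole in 100% of cases (tolerance 0.02 reads) and were used for depth and for voom, since counting error is small for genes of this depth and the number of mice limits precision.

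The tests used limma 3.58.1 in R 4.3.3 on the deposited values, with a mean per group, a variance trend and Benjamini-Hochberg adjustment over 16765 genes (log2 CPM of at least -1 in 5 libraries). A gene is called at adjusted p under 0.05 and 1.2-fold. The mean effect was counted at nominal p under 0.05. Exact permutations used 462 splits within a timing. The correction for GC content and length (longest GENCODE M21 transcript) used a loess of span 0.5 on 16213 genes. It and the fits were tested on simulated data. Gene positions are from RefSeq, GRCm38.p6, and figures were drawn with matplotlib 3.10.9 in Python 3.11.15.

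The members and all lists were chosen with earlier results of these data known. All 31 members are named. Gfap, Vim and members with an adjusted p under 0.05 in a comparison, else the 5 of lowest p in the late and early comparisons, are given with statistics, and the others by value, range or count. Of other lists, called genes are named, else the 3 of lowest late p. Some markers of other cell types are not reported here and were left out of their lists. Alternatives were other filters, pseudocounts, variance models, weights, scalings, voom, the mice of a comparison alone, a replicate block and leaving out each mouse. Late against Early SAFit2 mice, and its alternatives, were added after the data were seen.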

Additional observations from a re-analysis of the deposited data

Results flagged for a closer look

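Of the 124 sets of values (31 genes in 4 groups of 5 or 6 mice), 2 held a mouse far from the others of its group, and chance alone flags about 1 in 20. Both were in Early SAFit2 mouse 3. It had the highest Fgfr3 of its group, at 7.51 log2 CPM against 7.17 for the next mouse and 7.13 for the lowest. It also had the lowest Gjb6, at 6.41 against 6.64 for the next and 6.70 for the highest. Neither gene is called in Early mice.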

How the results depend on the processing

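The 31 members were refitted under up to 17 alternative settings and without each of 22 mice. For most settings the share of all genes called in the same fit is not given. The counts below thus show stability and are not a result about the members. The 5 late calls became 0 without a variance trend, with only the 11 late mice, and with GC and length correction (alone or with the replicate block), 3 with voom, 14 with the replicate block, 15 at nominal p and 17 with library quality weights. Without 1 mouse each they ranged from 0 to 15. The late median of -0.08 became 0.082 with library sizes without Bc1 and mitochondrial genes, 0.042 with GC and length correction and 0.035 with that correction and the block. The 7 members of the mean effect became 14 with weights and 4 with GC and length correction, and ranged from 4 to 10 without 1 mouse each. The early minus late count of 0 became 14 with weights, 6 with the replicate block, 8 at nominal p, and 0 to 7 without 1 mouse each. The early count of 0 became 1 at nominal p. Of Late against Early mice, the 15 calls in Vehicle became 3 with quantile normalization and 23 with GC and length correction, and the 13 in SAFit2 mice became 5 and 24. Without 1 mouse each they ranged from 11 to 19 and from 9 to 14. The median became 0.27 in Vehicle mice with quantile normalization, and in SAFit2 mice 0.41 with median centring, 0.079 with quantile normalization, 0.47 without Bc1 and mitochondrial genes and 0.49 with GC and length correction. Slc6a11, at -0.01 between Late and Early SAFit2 mice, became 0.34 with that correction and passed the test (adjusted p = 0.014, limma). The cause of these changes was not tested. Other signs that changed belonged to differences that passed neither before nor after. Residuals of same-numbered mice correlated at -0.24 to 0.32, over 0.1 in 2 of 10 pairs. This cannot decide whether these mice were paired, since the residuals also hold each library's trend on GC content. The block cannot be fitted across timings, and the mean effect and the early minus late difference need all 4 groups. Depth does not limit these genes, whose lowest library holds 198 reads.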
